A study of Mus musculus with 6 samples.

Results

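Retinoid cycle transcripts were examined in the retina of mice that lack Dicer1 in rod photoreceptors. The genes were 10 enzymes and carriers chosen by name, Rdh8, Rdh10, Rdh11, Rdh12, Rdh13, Rdh14, Abca4, Rlbp1, Rgr and Dhrs3, of 22731 gene symbols in the deposited table. All 10 were in the table, and all 10 were among the 12599 genes tested, those whose 6 libraries averaged 1 RPKM or more. RPKM is a read count scaled to the length of the gene model and to the depth of the library, so levels of different genes can be set side by side.

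The conditional knockout (cKO) mice were homozygous for a floxed Dicer allele and carried iCre75, a transgene that expresses Cre recombinase in rods. Control littermates carried the same floxed alleles without the transgene. Both were of a mixed C57BL/6J - SJL background, and retinas were taken at 4 weeks of age between 8 and 10 in the morning. Each group had 3 libraries, numbered 2, 3 and 4 for cKO and 1, 2 and 3 for control, and each library held pooled RNA of 4 mice, so the spread given here is that between pools.

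When light isomerises the chromophore of an opsin, all-trans-retinal is released into the photoreceptor and has to be cleared and recycled. ABCA4 moves its lipid adduct across the disc membrane, and NADPH-dependent retinol dehydrogenases, chiefly RDH8 in the outer segment and RDH12 in the inner segment, reduce it to retinol. Retinol then passes to the pigment epithelium, or in a second route to Müller glia, where 11-cis-retinal is made again and carried by CRALBP, the product of Rlbp1. RGR is an opsin of both of these cell types that binds all-trans-retinal.

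The retina could be recognised in every library by its defining transcripts. The summed level of 12 rod markers was between 26067 and 28612 RPKM in cKO and between 27161 and 32114 RPKM in control libraries, and all 12 Müller glia markers were above 0 throughout. In the libraries, between 12336426 and 32934561 reads fell in genes, worked back from the RPKM steps, with cKO replicate 4 the shallowest. Dicer1 was at 8.02, 7.06 and 7.90 RPKM in cKO and at 8.48, 8.77 and 8.33 RPKM in control libraries. The cKO mean was 89.9% of the control mean and all 3 cKO values lay below all 3 control values, as for 5.78% of genes tested. Dicer1 had a log2 fold change of −0.15 ± 0.079 (SE) and a limma adjusted p of 0.931. The table gives 1 value per gene and none for the floxed exons alone. Lens transcripts differed widely between libraries of the same group, with a sum of 6 lens markers between 199 and 2415 RPKM in cKO and between 343 and 3257 RPKM in controls. In whole retina, fewer cells of a type and less RNA per cell cannot be told apart.

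The 10 genes spanned a 31.8-fold range of levels. Rlbp1 was the most abundant with a mean of 234 RPKM over the 6 libraries, above 99.2% of the genes tested, and Rdh12 followed at 178 RPKM. Abca4 was at 118 RPKM, Rdh8 at 81.7, Rgr at 65.8 and Dhrs3 at 53.5 RPKM. The lower group held Rdh10 at 25.1, Rdh11 at 19.5, Rdh14 at 17.5 and Rdh13 at 7.36 RPKM. The ranges over the 6 libraries overlapped between neighbours in this order for Rlbp1 and Rdh12, for Rdh8 and Rgr, for Rgr and Dhrs3, for Rdh10 and Rdh11, and for Rdh11 and Rdh14. They did not overlap for the other neighbours, namely Rdh12 and Abca4, Abca4 and Rdh8, Dhrs3 and Rdh10, and Rdh14 and Rdh13. The photoreceptor genes Rdh12, Abca4 and Rdh8 and the glial and epithelial genes Rlbp1 and Rgr thus filled the first 5 places.

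None of the 10 genes passed the test between cKO and control (limma on log2(RPKM + 0.5), Benjamini-Hochberg adjusted p under 0.05 over all genes tested). In the same test 1 gene, or 0.00794% of those tested, passed; it was Prm1, which is not a retinoid gene. The unadjusted limma p was under 0.05 for 2 of the 10, Rdh12 and Rdh11, against 5.71% of all genes tested; both were lower in cKO, against 3.06% of all genes. A fit of the worked-back reads with limma voom also called 0 of the 10. By mean log2 value 6 were higher and 4 lower in cKO, with a median log2 fold change of 0.040 against −0.0050 over all genes tested. Groups did not overlap for 1 of the 10, Abca4, where 11.7% of all genes tested had groups that did not overlap.

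**Figure D1:**
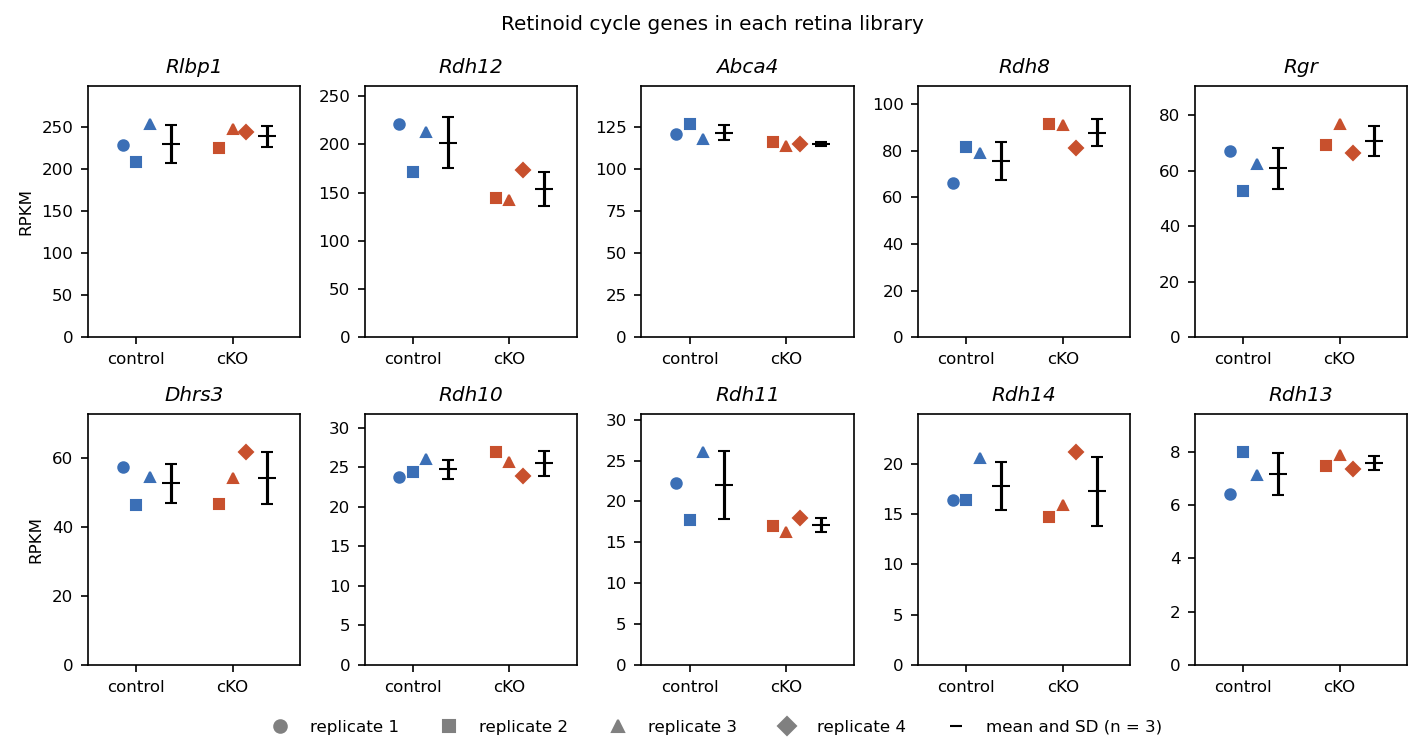
RPKM of the 10 retinoid cycle genes in each of the 6 retina libraries, in order of mean level, with control in blue and cKO in red. Points are libraries, marked by replicate number, and the black bar shows the mean and SD of 3 libraries; every vertical axis starts at 0. The groups overlap in every panel except that of Abca4, where cKO lies between 114 and 116 RPKM and control between 117 and 126 RPKM.

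Of the enzymes that reduce all-trans-retinal in photoreceptors, Rdh12 had the lower and Rdh8 the higher mean in cKO. Rdh12 (chr12:79208914-79222665, plus strand, GRCm38) encodes the main inner segment reductase, which protects photoreceptors from retinal aldehydes and whose loss causes a retinal dystrophy in humans. It was at 144, 142 and 174 RPKM in cKO replicates 2, 3 and 4, and at 221, 172 and 213 RPKM in control replicates 1, 2 and 3. The 2 lowest values were those of cKO replicates 2 and 3, and the groups overlapped because control replicate 2 lay just under cKO replicate 4. The means were 153 ± 17.7 RPKM in cKO and 202 ± 26.5 RPKM in control (SD, n = 3), so the cKO mean was 76.0% of the control mean. The log2 fold change was −0.39 ± 0.13 (SE), with a 95% interval from −0.70 to −0.085, an unadjusted limma p of 0.0188 and an adjusted p of 0.848. An exact permutation test, two-sided, gave 0.2, where 3 against 3 libraries cannot go below 0.1. These values rest on 4402 to 14450 reads per library.

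Rdh8 (chr9:20818503-20826117, plus strand, GRCm38), the outer segment reductase, was ordered the other way. It was at 91.3, 91.04 and 81.1 RPKM in cKO and at 66.4, 81.6 and 79.02 RPKM in control libraries. Again 1 pair of libraries made the groups overlap, since control replicate 2 lay just above cKO replicate 4. For Rdh8 the log2 fold change came to 0.22 ± 0.11 (SE), with a 95% interval from −0.035 to 0.47 and a limma adjusted p of 0.910. Of the RPKM of both reductases together, Rdh8 made up 38.8%, 39.01% and 31.8% in cKO libraries and 23.1%, 32.2% and 27.1% in control libraries. That share overlapped between the groups only through cKO replicate 4 and control replicate 2. The sum of the pair was 241 ± 11.9 RPKM in cKO and 277 ± 21.2 RPKM in controls (SD, n = 3); neither the sum nor the share was tested.

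Rdh11 (chr12:79174337-79192293, minus strand, GRCm38) encodes a reductase of broad expression that is also an 11-cis-retinol dehydrogenase of the pigment epithelium. It lies head to head with Rdh12, and 16620 bases separate the gene bodies. Its values were 17.00, 16.3 and 17.97 RPKM in cKO and 22.2, 17.7 and 26.04 RPKM in control libraries. As with Rdh12, control replicates 1 and 3 were the highest and control replicate 2 lay among the cKO libraries. The log2 fold change was −0.34 ± 0.14 (SE), with a 95% interval from −0.65 to −0.027, an unadjusted limma p of 0.0369 and an adjusted p of 0.865. Leaving out control replicate 3 gave −0.21 and leaving out control replicate 2 gave −0.48, so the size of this difference turned on single control libraries.

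The transcripts of Rdh11 and Rdh12 were compared by their longest run of identical bases only, not by their similarity over the full length. The longest run of bases that the longest coding transcripts of both genes share was 14, and the longest between any 2 of the 10 genes was 19. The ratio of Rdh12 to Rdh11 RPKM was 8.97 ± 0.628 in cKO and 9.26 ± 0.947 in controls (SD, n = 3). Of the coding genes on either side, Vti1b, which lies beyond Rdh11 and encodes a vesicle SNARE, had a log2 fold change of −0.10 ± 0.16, and Zfyve26, beyond Rdh12, had one of −0.071 ± 0.079 (SE). Their limma adjusted p was 0.997 for both, and both were chosen as neighbours after the values of Rdh11 and Rdh12 were seen. In Vti1b cKO replicate 4 was the highest library at 38.2 RPKM, which neither reductase gene showed. By the smallest root-mean-square difference of centred log2 values over the 6 libraries, the 2 tested genes most like Rdh12 were Erlin1 at 0.053 and Zfp35 at 0.062. There were 41 genes within 0.1 of Rdh12, and Rdh11, at 0.11, was the 60th.

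**Figure D2:**
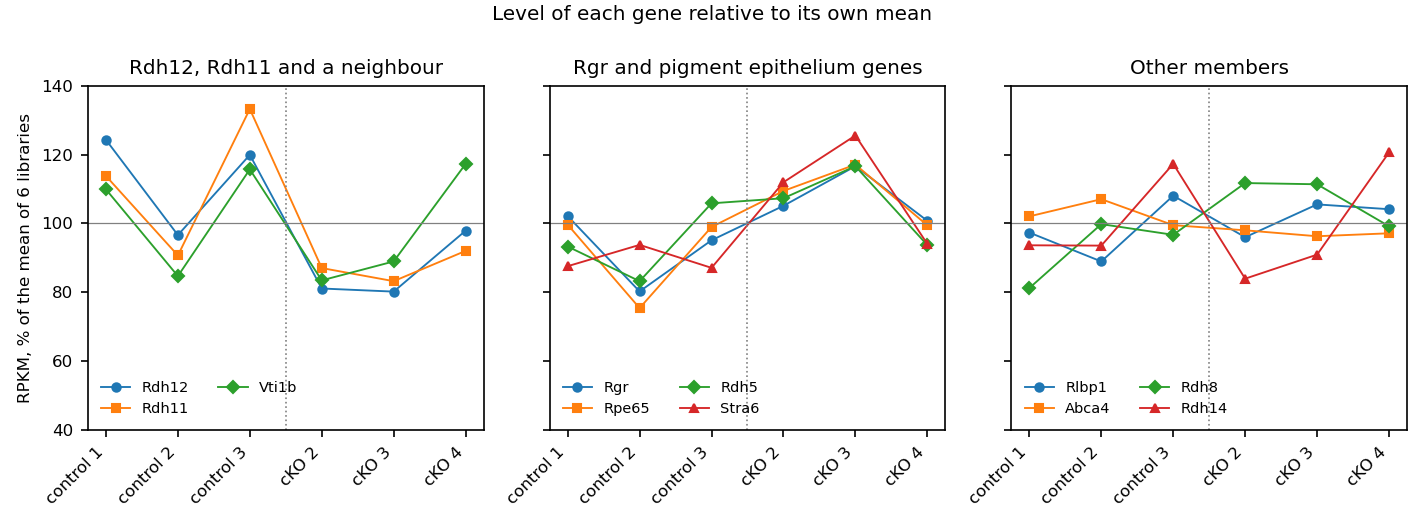
RPKM of each gene as a percentage of its own mean over the 6 libraries, by library, with control to the left and cKO to the right of the dotted line. Lines only connect the points of 1 gene, since libraries have no order, and the vertical axis does not start at 0. Rdh12 and Rdh11 are at 124% and 114% in control replicate 1 and at 80.2% and 83.2% in cKO replicate 3. Rgr and Rpe65 are both lowest in control replicate 2, at 80.2% and 75.4%, and both highest in cKO replicate 3, at 117%.

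The flippase gene Abca4 (chr3:122044443-122180123, plus strand, GRCm38), whose human counterpart is mutated in Stargardt disease, was the best covered of the 10, with 12570 to 35702 reads per library. It was at 116, 114 and 115 RPKM in cKO and at 120, 126 and 117 RPKM in control libraries. All 3 cKO values lay below all 3 control values, as they did for 5.78% of the genes tested. The distance was small: the cKO mean was 94.4% of the control mean and the log2 fold change was −0.082 ± 0.083 (SE), with a 95% interval from −0.27 to 0.11. An exact permutation test, two-sided, gave 0.1, the least that this design allows, and the limma adjusted p was 0.995. The spread within cKO was 0.888% of the mean, against a median of 9.83% over all genes tested. The tested genes most like Abca4 were Pign at 0.016 and Ltn1 at 0.019, but with so flat a pattern 3200 genes lay within 0.1.

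The carrier gene Rlbp1 (chr7:79374870-79387048, minus strand, GRCm38) encodes CRALBP, which holds 11-cis-retinoids in Müller glia and pigment epithelium. It was at 225, 247 and 244 RPKM in cKO and at 228, 208 and 253 RPKM in control libraries. The highest and the lowest value were both control values, so the cKO libraries lay inside the control range. For Rlbp1 the log2 fold change came to 0.058 ± 0.11 (SE), with a 95% interval from −0.19 to 0.30 and a limma adjusted p of 0.997. It was −0.011 without control replicate 2. Glul, the glutamine synthetase gene and a Müller glia marker, was at 361, 377 and 339 RPKM in cKO and at 350, 372 and 350 RPKM in controls. The whole list of 12 Müller glia markers summed to between 2474 and 2606 RPKM in cKO and between 2491 and 2811 RPKM in controls. None of the 12 passed, and 4 had a log2 fold change above 0 and 8 below, with a median of −0.038. Aqp4 had the smallest p of that list, with a log2 fold change of −0.17 (limma adjusted p 0.871). All 3 cKO values of Aqp4 lay below all 3 control values, as for 5.78% of genes tested. The tested gene most like Rlbp1 was Ctsf at 0.014, followed by 9030624J02Rik at 0.018, and 2840 genes lay within 0.1.

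Rgr (chr14:37034909-37048964, minus strand, GRCm38) was at 69.1, 76.7 and 66.3 RPKM in cKO and at 67.2, 52.7 and 62.5 RPKM in control libraries. The groups overlapped through control replicate 1, which lay between cKO replicates 4 and 2, and control replicate 2 was the lowest of all. The means were 70.7 ± 5.40 RPKM in cKO and 60.8 ± 7.36 RPKM in control (SD, n = 3). The log2 fold change was 0.22 ± 0.11 (SE), with a 95% interval from −0.045 to 0.49 and a limma adjusted p of 0.925. Leaving out control replicate 2 gave 0.12, and leaving out control replicate 1 gave 0.29.

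Of all tested genes, the one whose pattern over the 6 libraries was most like that of Rgr was Rpe65, the isomerohydrolase gene of the pigment epithelium, with a root-mean-square difference of 0.046 on the log2 scale. The next was Slc7a10, an amino acid transporter gene, at 0.048, and 64 genes lay within 0.1. Rpe65 was at 11.7, 12.5 and 10.6 RPKM in cKO and at 10.6, 8.05 and 10.6 RPKM in control libraries, so it too was lowest in control replicate 2 and highest in cKO replicate 3. Rdh5, the 11-cis-retinol dehydrogenase gene of that tissue, was at 41.1, 44.7 and 35.9 RPKM in cKO. It was at 35.7, 31.9 and 40.5 RPKM in controls, with the same libraries at either end. In likeness to Rgr, Rdh5 ranked 43rd at 0.095, Lrat 188th at 0.11 and Stra6 1553rd at 0.15. Ttr and Rrh of that tissue were also lowest in control replicate 2. Ttr was highest in control replicate 1 and Rrh in cKO replicate 4.

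Of the 15 pigment epithelium markers listed, 14 were in the table, none was at 0 in any library, and their sum was between 294 and 405 RPKM in cKO and between 289 and 369 RPKM in controls. Split after the values were seen, the visual cycle genes Rpe65, Lrat, Rdh5, Rrh and Stra6 summed to between 69.6 and 81.9 RPKM in cKO and between 59.4 and 72.5 RPKM in controls. The melanosome genes Tyrp1, Tyr, Dct, Pmel, Mlana and Slc45a2 followed another order. Their sum was 230, 141 and 118 RPKM in cKO and 146, 235 and 122 RPKM in control libraries, highest in control replicate 2, where Rgr was lowest. The part of pigment epithelium in the values of Rgr, Rlbp1, Rdh10 and Abca4, all of which that tissue can express, was not tested.

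Rdh10 (chr1:16105774-16133734, plus strand, GRCm38) encodes the enzyme that oxidises retinol to retinal, the first step towards retinoic acid, and it acts in Müller glia and pigment epithelium. It was among the steadiest of the 10, between 23.8 and 26.9 RPKM in cKO and between 23.8 and 26.03 RPKM in control libraries. For Rdh10 the log2 fold change came to 0.041 ± 0.085 (SE), with a 95% interval from −0.15 to 0.24. Leaving out cKO replicate 2 gave 0.0016 and leaving out cKO replicate 4 gave 0.088. Dhrs3 (chr4:144892827-144928209, plus strand, GRCm38) encodes a reductase that turns retinal back to retinol and, in the embryo, limits retinoic acid. It ran from 46.7 to 61.8 RPKM in cKO and from 46.3 to 57.4 RPKM in controls, with a log2 fold change of 0.039 ± 0.13 (SE). This direction was carried by single libraries, since leaving out cKO replicate 4 gave −0.059 and leaving out control replicate 2 gave −0.051.

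The remaining 2 genes encode reductases with wide tissue distribution. Rdh14 (chr12:10390772-10395562, plus strand, GRCm38) was at 14.7, 15.9 and 21.2 RPKM in cKO and at 16.4, 16.4 and 20.6 RPKM in control libraries. It was high in 1 library of each group, cKO replicate 4 and control replicate 3, and the log2 fold change was −0.051 ± 0.15 (SE), with a 95% interval from −0.40 to 0.30. It was −0.25 over the 4 libraries numbered 2 and 3, and 0.055 with control replicate 3 left out. Rdh13 (chr7:4424770-4445649, minus strand, GRCm38), whose product is attached to mitochondria, was the least abundant, between 7.36 and 7.85 RPKM in cKO and between 6.41 and 7.98 RPKM in controls. The log2 fold change was 0.076 ± 0.093 (SE), and its values rest on 339 to 947 reads per library. Leaving out control replicate 1 gave 0.0034 and leaving out control replicate 2 gave 0.15. The limma adjusted p of Rdh10, Dhrs3, Rdh14 and Rdh13 was 0.997 for each.

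**Figure D3:**
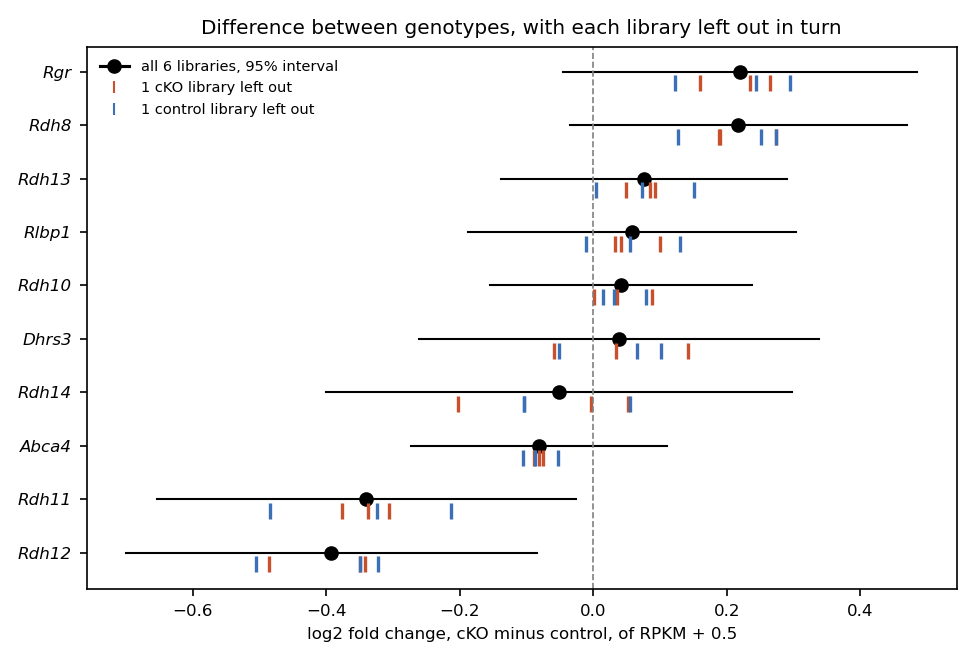
Log2 fold change (cKO minus control) of RPKM + 0.5 for the 10 genes. Black points and lines are the estimate from all 6 libraries and its 95% interval from limma, and the short coloured bars are the estimates with 1 cKO (red) or 1 control (blue) library left out. Rdh12 runs from −0.50 to −0.32 and Rdh11 from −0.48 to −0.21 over the fits with 1 library left out, while those of Rlbp1, Dhrs3 and Rdh14 lie on both sides of 0.

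Dicer1 cuts precursors into mature microRNAs, which pair through their seed, bases 2 to 8, with sites in the 3′ UTR of messages. Sites for microRNAs that are well known in the retina were therefore sought in the longest annotated 3′ UTR of each of the 10 genes. The mature sequences below are from RefSeq (GRCm38.p6) and the UTRs from GENCODE M21 (GRCm38); capitals mark the seed, and no 2 of these seeds are the same.
miR-182-5p: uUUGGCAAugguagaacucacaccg
miR-96-5p: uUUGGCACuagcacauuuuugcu
miR-183-5p: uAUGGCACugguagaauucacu
miR-9-5p: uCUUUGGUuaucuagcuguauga
miR-204-5p: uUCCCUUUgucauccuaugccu
let-7a-5p: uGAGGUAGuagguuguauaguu

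The photoreceptor cluster of miR-182, miR-96 and miR-183 had sites in 1 of the 10 genes, and it was Rdh10. A site for miR-182-5p (TTGCCAA, held by 14.4% of the 11049 tested genes with an annotated 3′ UTR) and one for miR-96-5p (GTGCCAA, 11.4%) stood in its 3′ UTR, and none of the 10 held the miR-183-5p site (GTGCCAT, 12.6%). Both Rdh10 sites are shown because these microRNAs are the ones most abundant in photoreceptors, with the 7 bases that match the seed in capitals.
Rdh10 miR-182-5p site, chr1:16131586-16131615, plus strand: agcttgggtttTTGCCAAtggggtcttttc
Rdh10 miR-96-5p site, chr1:16132162-16132191, plus strand: tccccgtacttGTGCCAActttaattagct

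Rdh10, the gene with these sites, had a cKO mean that was 103% of the control mean. Whole retina does not separate rods, where the transgene expresses Cre, from other cells. Which cells express Rdh10 in these retinas was not tested. The enzyme and carrier genes of the photoreceptor itself, Rdh8, Rdh12 and Abca4, held no site for these 3 microRNAs in their 3′ UTRs of 450, 600 and 228 bases. The miR-9-5p site (ACCAAAG, 15.8% of genes) was in Rdh12 and Rdh13. That of Rdh12 is shown because Rdh12 had the lowest log2 fold change of the 10.
Rdh12 miR-9-5p site, chr12:79222109-79222138, plus strand: aaaaaaaaaggACCAAAGagaaggttgatc

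For let-7a-5p (CTACCTC, 12.1% of genes), 1 site each was in Rdh10, Rdh11, Rdh13 and Rgr. The miR-204-5p site (AAAGGGA, 17.6%), for a microRNA of pigment epithelium and inner retina, was in Rgr alone, at 2 places. They are shown because Rgr, with Rdh8 next to it, had the highest log2 fold change of the 10.
Rgr miR-204-5p site 1, chr14:37036476-37036505, minus strand: agaaacaggccAAAGGGAtcagcatccaag
Rgr miR-204-5p site 2, chr14:37035615-37035644, minus strand: ataatgagcgcAAAGGGAgaagctctgcag

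These are matches of letters and were not tested as sites. RGR is an opsin known from Müller glia and pigment epithelium. Whether Rdh10 or Rgr is expressed in the cells that lost Dicer was not tested. The whole gene model behind the deposited values, as worked back, was 1659 bp for Rgr, 1574 bp for Rdh11 and 2295 bp for Rdh10, shorter than their longest annotated 3′ UTRs of 3904, 1808 and 2317 bases. Parts of those UTRs were therefore not counted in the RPKM. The 2 Rgr sites for miR-204-5p start at bases 2319 and 3180 of that UTR. Whether the stretches around them were counted was not tested.

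Genes listed outside the 10 gave the same count of calls. They were retinoid genes and 21 genes of the wider short-chain dehydrogenase family. Of these 69 genes, 67 were in the table and 47 were tested, 16 of them from that family, and 0 passed. An unadjusted limma p was under 0.05 for 2 of the 47, against 5.71% of all genes tested. A voom fit of the worked-back reads also called 0. The median log2 fold change of the 47 was 0.0054, with 24 above and 23 below 0. Chromophore renewal in the pigment epithelium was the list with the highest median: all 7 tested genes had a log2 fold change above 0, with a median of 0.17. The eighth, Rbp4, the gene of the plasma retinol carrier, was too low to be tested, at 0.283, 0.710 and 0.561 RPKM in cKO and at 0.784, 0.752 and 0.894 RPKM in controls. Every cKO value of Rbp4 lay below every control value, as for 5.78% of genes tested. These values rest on 9, 33 and 11 reads in cKO and 35, 38 and 47 reads in controls. Stra6, the receptor that takes up retinol from its plasma carrier, was at 11.4, 12.8 and 9.60 RPKM in cKO and at 8.94, 9.57 and 8.89 RPKM in controls. Its 3 cKO values lay above its 3 control values, as for 5.91% of genes tested, by a distance of 0.0290 RPKM between the nearest 2 (log2 fold change 0.28 ± 0.11 SE, limma adjusted p 0.864). Ttr, the most abundant of that list, encodes the plasma carrier transthyretin and was at 105 ± 5.76 RPKM in cKO and 96.3 ± 22.8 RPKM in control (SD, n = 3).

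Among retinoid binding and ester genes, 7 of 10 tested were above 0, with a median of 0.11 and no call. Rbp3, which encodes the carrier of the matrix between photoreceptors and pigment epithelium, was at 985, 1065 and 883 RPKM in cKO and at 882, 942 and 858 RPKM in controls. Dgat1 and Lpl, an acyltransferase that can esterify retinol and a lipase, had log2 fold changes of 0.17 and 0.12. Of the opsins, which bind the chromophore, 2 of 6 tested were above 0, with a median of −0.066. Opn4, the melanopsin gene, and Opn3 had log2 fold changes of −0.20 and −0.13.

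Genes for the synthesis and breakdown of retinoic acid were mostly too low to be tested. Of the 14 listed 3 were tested, Aldh1a1, Adh5 and Cyp26a1, with log2 fold changes of −0.091, −0.076 and 0.14. All 8 genes of the retinoid receptor list were tested, with a median of 0.092 and 5 above 0. That list includes Stra6, the receptor for the plasma carrier, at 0.28 and Ppard at 0.19. Of its other genes, Rara, Rxra and Rxrb were at 0.19, 0.14 and 0.047. Rarb, Rarg and Rxrg were at −0.17, −0.084 and −0.060. Rxrb, the most abundant, was at 29.1 ± 0.891 RPKM in cKO and 28.2 ± 0.833 RPKM in control, and Ppard at 23.9 ± 0.681 and 20.97 ± 1.54 RPKM (SD, n = 3). In the wider short-chain dehydrogenase family, to which the RDH enzymes belong, 5 of 16 tested were above 0 and the median was −0.032. Cbr3, a carbonyl reductase gene, had the smallest p of that list, at 2.27, 2.10 and 1.98 RPKM in cKO and 2.61, 2.35 and 3.05 RPKM in controls (log2 fold change −0.27 ± 0.10 SE, limma adjusted p 0.864). Dhrs13 followed at −0.16, and Sdr39u1, the most abundant, was at −0.0064.

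**Figure D4:**
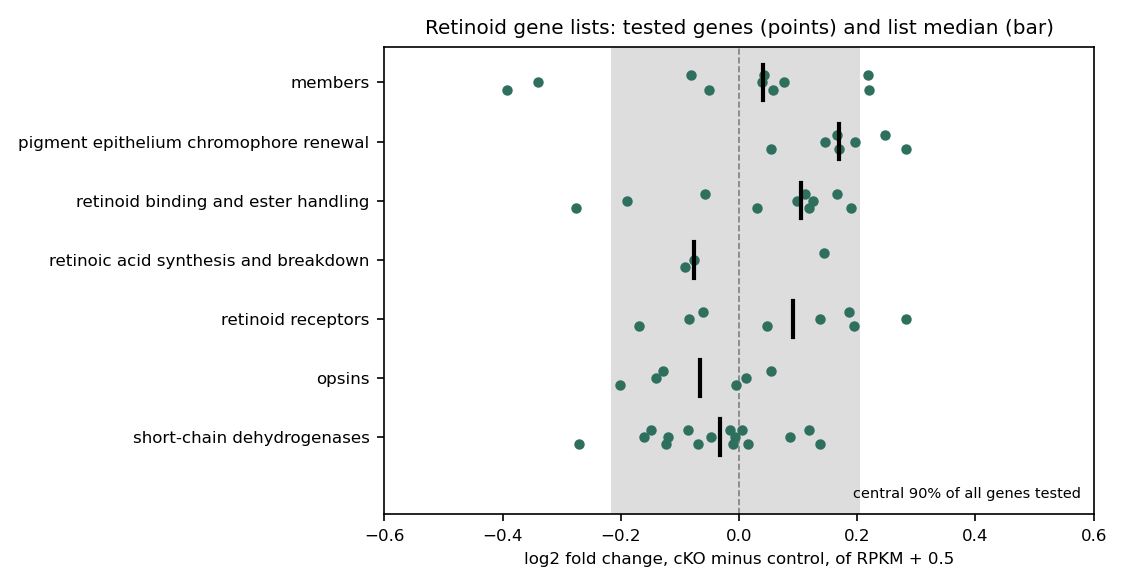
Log2 fold change (cKO minus control) of RPKM + 0.5 for the tested genes of 7 lists, the last the wider short-chain dehydrogenase family. There is 1 point per gene, with the list median as a black bar and the 10 retinoid cycle genes as "members". Stra6, Rrh and Dgat1 stand in 2 lists each. The grey band holds the central 90% of all genes tested, from −0.21 to 0.20. Rdh12 and Rdh11 lie to the left of the band, Rdh8 and Rgr just to its right, and the 7 tested genes of pigment epithelium chromophore renewal lie to the right of 0.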

How the data were processed

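Poly(A) RNA of mouse retina was sequenced in 6 libraries, grouped by their titles. The authors deposited RPKM values per gene and library; the submitters' processing notes name GSNAP, HTSeq and mm9, with versions and annotation not given in the sources used here. Second-strand synthesis did not mark strand, per the labels' protocols. RPKM is relative, so abundant genes that change move the rest. The series' design text describes the 3 libraries of a genotype as biological replicates, so the spread is taken as that between pools of different mice.

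The test was limma 3.58.1 (R 4.3.3) on log2(RPKM + 0.5), two-sided, unblocked and with a trended variance, adjusted at a threshold of 0.05 over the 12599 genes that averaged 1 RPKM or more; it was tested on simulated data. This scale understates fold changes of low genes. Whole reads were worked back from the RPKM steps for 19138 of 19140 genes above 0, within the rounding of the file, with denominators, the smallest that keep reads whole, between 15128203 and 40523119.

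The 10 genes and all lists were chosen with earlier results of these data known. All 10 are named; of each list, those that passed, the 2 with the smallest p and the most abundant are named, with the 2 tested genes most like Rdh12, Abca4, Rlbp1 and Rgr. Other genes were named after their values were seen. A gene that the rule for lists names is not reported here. In the marker lists of rods, cones, Müller glia, pigment epithelium, vessels, microglia, ciliary body and iris, and lens, 0 genes passed, and the median log2 fold change was −0.039, 0.060, −0.038, 0.054, −0.013, −0.048, −0.23 and −0.40 in that order. Positions come from GENCODE M21 (GRCm38), a later build than mm9, and only place genes. miR-124-3p was not analysed here.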

Additional observations from a re-analysis of the deposited data

How the results depend on the processing

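Of the 69 other genes in the retinoid and short-chain dehydrogenase lists, 47 were tested in the main fit. No gene of those lists passed in a fit that tested it, and none of the 10 genes passed in the 13 alternatives run. These were pseudocounts of 0.1 and 1 RPKM, no filter, median-of-ratios scaling, voom on worked-back reads, each library left out in turn, the replicate block, and its 4 libraries without the block, the last added after seeing the data. Over all genes, the 1 call became 3 with no filter, 3 with median-of-ratios scaling and 3 with voom, and stayed at 1 without each library. Direction turned in fits with 1 library left out for Rlbp1 (−0.011 to 0.13), Dhrs3 (−0.059 to 0.14) and Rdh14 (−0.20 to 0.055). Rdh14 was at −0.25 over the 4 libraries numbered 2 and 3, with the block (adjusted p 0.175) and without it (0.879). The other 7 genes kept their direction in all 13: Rdh12 between −0.50 and −0.32, Rdh11 between −0.48 and −0.21, Rgr between 0.12 and 0.34, Rdh8 between 0.13 and 0.27, Abca4 between −0.11 and −0.053, Rdh10 between 0.0016 and 0.088 and Rdh13 between 0.0034 and 0.15. The limma adjusted p over these alternatives ran from 0.0794 to 1.00 for Rdh12 and from 0.0939 to 1.00 for Rgr. Both low ends came from the replicate block, and the next lowest were 0.482 and 0.514, both without cKO replicate 4.

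Both groups have libraries numbered 2 and 3. The titles give the number and do not say whether libraries with the same number share anything else, which was not tested. The difference between numbers 2 and 3 correlated across genes at 0.47 between cKO and control. The replicate block on these 4 libraries, with 1 residual degree of freedom, called 192 genes, against 1 for the same libraries without it, and 0 of the 10. With 3 pools per group, the design limits what could be called: the 95% interval of Rdh12 runs from −0.70 to −0.085, and even Rlbp1, with at least 8120 reads in every library, has one from −0.19 to 0.30.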

Other observations

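Several further dehydrogenase genes of the retinoic acid list were low or at 0 in whole retina and were not tested. Rdh16 was above 0 in 1 library, cKO replicate 3, at 0.0174 RPKM, or 1 read. Rdh7 did not exceed 0.0728 RPKM, Dhrs9 0.0235 RPKM and Rdh1 0.178 RPKM in any library. Rdh9 was between 0.200 and 0.499 RPKM, with its highest value in cKO replicate 2. The retinoic acid synthesis genes Aldh1a2 and Aldh1a3 were at 0.288 and 0.683 RPKM on average over the 6 libraries. Aldh1a1 of the same list, which was tested, was at 23.3 RPKM, against 19.5 RPKM for Rdh11. Bcmo1, which encodes the enzyme that cleaves beta-carotene to retinal, did not exceed 0.0644 RPKM.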
